A study of Homo sapiens with 2 samples.

Results

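Respiratory complex I genes were compared between 2 digital gene expression libraries of A549, an established human lung adenocarcinoma cell line. The members were the rows of the deposited table whose symbol starts with NDUFA, NDUFB, NDUFC, NDUFS, NDUFV or NDUFAF, without pseudogenes, and 40 of 13137 genes are described. They comprised 34 subunits, 4 assembly factors of the NDUFAF series, and NDUFA4 with its paralog NDUFA4L2. The first library came from A549-H1tetO-shRNA-SOX2 cells, which carry a short hairpin RNA (shRNA) directed against the transcription factor SOX2 under an H1 promoter with tet operator, and the other from A549-H1tetO-shRNA-Con cells with a scrambled hairpin. Doxycycline (Dox), which switches the hairpin on, was given for 4 days to control and SOX2 cells alike. Per the study's methods both hairpins were delivered by lentivirus, and the control cells went through the same selection as the SOX2 cells. The SOX2 line was a polyclone selected with puromycin, so it is a mixed population with different integrations. There was 1 library per condition, so no difference described here has a replicate check, and each test compares these libraries rather than the conditions.

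Complex I is the entry point of electrons into the mitochondrial respiratory chain. Its matrix arm oxidises NADH in the N module and passes the electrons along iron-sulphur clusters to ubiquinone in the Q module, and its membrane arm pumps protons. A small set of core subunits does the chemistry, some of them encoded in mitochondrial DNA, and the accessory subunits around them are needed to build and hold the complex. Assembly factors join the modules and leave before the complex is finished. Of the members, 33 carry the Gene Ontology term for complex I. NDUFA4 was first named as a complex I subunit and is now placed with cytochrome c oxidase. NDUFA2, NDUFC1 and the mitochondrially encoded ND genes were not analysed here.

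The targeted gene was examined first. SOX2 had 16 tags in the control library (shRNA-Con) against 23 in the one labelled shRNA-SOX2, and the ratio was 1.58 with a 95% interval from 0.800 to 3.20 (adjusted p = 0.333, Fisher's exact test). SOX2 tags were therefore not shown to be lower in the library that carries its hairpin. No direction given here can be tied to loss of SOX2 mRNA. By Western blotting, the paper reports silencing of SOX2 in cells of this line after Dox. Tag counts do not measure protein, and counts this low set the SOX2 ratio only loosely. The tags assigned to genes summed to 2304184 in the control library and 2093816 in the library labelled shRNA-SOX2, which were 65.5% and 60.6% of all clean tags. A count of 0 allowed up to 1.30 tags per 1000000 gene tags in the former and 1.43 in the latter. The A549 markers KRT8, KRT18, ALDH1A1, AKR1B10 and NQO1 had between 4179 and 14268 tags in each library, whereas KRT19 had 35 and 127, CDH1 had 50 and 50 and EPCAM had 8 and 4. Of these 8 markers 4 were called higher and 2 lower relative to control at a false discovery rate of 0.001, against 9.53% and 12.2% of all genes. The 2 called lower, KRT18 and AKR1B10, had ratios of only 0.841 and 0.835. The median log2 fold change was 0.71 over the 7 markers with at least 20 tags, and the part of the markers in the complex I differences was not tested. Of 9 markers of other cell types, 4 had a row, and their tags summed to 41 and 22, most of them from RBFOX3 (34 and 15). PTPRC, a leukocyte marker, had 2 tags in each library, and PECAM1, an endothelial marker, had 3 and 0. In RNA from a whole culture, fewer cells of a type and less RNA per cell cannot be told apart.

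Sequences upstream of the members with the smallest p-values in each direction of the comparison with the control library, NDUFA1 and NDUFV1 (higher) and NDUFB2 and NDUFB10 (lower), are shown to let the ends of the range be compared. Each is the 250 bases before the RefSeq start site in GRCh38.p14, written 5′ to 3′ in the direction of transcription, and no base is in capitals because none of the motifs searched was found in them.
NDUFA1 (chrX:119871582-119871831, plus strand): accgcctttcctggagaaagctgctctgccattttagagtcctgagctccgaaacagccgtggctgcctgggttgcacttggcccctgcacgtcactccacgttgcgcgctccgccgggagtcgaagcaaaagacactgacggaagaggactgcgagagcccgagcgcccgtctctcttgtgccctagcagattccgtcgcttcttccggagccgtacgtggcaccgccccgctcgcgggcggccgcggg
NDUFV1 (chr11:67606686-67606935, plus strand): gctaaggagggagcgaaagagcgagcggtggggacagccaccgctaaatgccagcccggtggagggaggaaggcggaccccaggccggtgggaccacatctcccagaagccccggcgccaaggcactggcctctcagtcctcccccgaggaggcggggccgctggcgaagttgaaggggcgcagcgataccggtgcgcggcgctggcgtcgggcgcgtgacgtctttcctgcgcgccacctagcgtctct
NDUFB2 (chr7:140696458-140696707, plus strand): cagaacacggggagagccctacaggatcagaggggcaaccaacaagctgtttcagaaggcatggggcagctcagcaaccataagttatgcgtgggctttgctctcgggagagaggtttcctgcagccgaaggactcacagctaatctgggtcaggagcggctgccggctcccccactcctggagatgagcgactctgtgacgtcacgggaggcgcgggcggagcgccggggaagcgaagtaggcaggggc
NDUFB10 (chr16:1959288-1959537, plus strand): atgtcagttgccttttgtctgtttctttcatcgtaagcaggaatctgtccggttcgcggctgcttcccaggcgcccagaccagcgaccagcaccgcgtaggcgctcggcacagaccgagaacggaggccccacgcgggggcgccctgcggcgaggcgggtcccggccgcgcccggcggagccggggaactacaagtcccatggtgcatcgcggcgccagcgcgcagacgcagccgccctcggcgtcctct
The GC content of these stretches was 65.2% for NDUFA1, 70.4% for NDUFV1, 62.4% for NDUFB2 and 69.6% for NDUFB10, so both directions lie in the same range.

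A RefSeq promoter of 300 bases (250 before and 50 after the start site) was matched for 36 of the 40 members. The letters GCGCANGCG, bound by the mitochondrial biogenesis factor NRF1, were found on either strand in 9 of them (25.0%), against 8.05% of 27305 promoters and 16.4% of the promoters of genes with at least 20 tags. NDUFS6, NDUFA3, NDUFA9 and NDUFB4, which were higher, and NDUFAB1, which was lower, are the called members that hold them, and the first match in each is shown in capitals.
NDUFS6 (chr5:1801351-1801379, plus strand): cagaagccgtGCGCATGCGttagcgctaa
NDUFA3 (chr19:54102675-54102703, plus strand): ctgcgcgagtGCGCACGCGcaggctccga
NDUFA9 (chr12:4649025-4649053, plus strand): tcttggttagCGCTTGCGCagacaggcga
NDUFB4 (chr3:120596167-120596195, plus strand): agagcacttcGCGCATGCGcatatcaccg
NDUFAB1 (chr16:23596343-23596371, minus strand): ccgtgtgcgtCGCCTGCGCgccgccggaa
NDUFA3 had 2 matches and NDUFB4 had 4, of which some overlap. The letters were present in 4 of 11 higher, 1 of 11 lower and 4 of 14 uncalled members with a promoter. The YY1 letters AAGATGGC were found in 6 members (16.7%, against 6.15% of promoters of genes with at least 20 tags), of which NDUFS4, NDUFA3 and NDUFA9 were higher and the other three, NDUFA7, NDUFA6 and NDUFS7, were not called. The GABP letters CCGGAAGT were found in NDUFS1 and NDUFA13, the estrogen-related receptor letters CAAGGTCA in NDUFA5, and the SOX2 letters CATTGTT in 0 members, against 9.83%, 0.711% and 1.36% of the promoters of genes with at least 20 tags. These matches describe the letters of a window and say nothing of binding in A549 cells.

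Complex I genes did not move together. With tags divided by the total of gene tags, 19 members had a ratio above 1 (library labelled shRNA-SOX2 to control library) and 21 had a ratio below 1. By Fisher's exact test on each gene's tags, with Benjamini-Hochberg adjustment over the 13137 genes and a false discovery rate (FDR) of 0.001, 12 members were higher (30.0%), 11 were lower (27.5%) and 17 did not pass. Over all genes, 9.53% were called higher and 12.2% lower. Complex I genes are abundant, with a median of 584 tags in the libraries together against 89.0 for all genes, and small differences pass the test at that depth. Among genes with at least 100 tags, 12 of 35 members were higher (34.3%) and 10 of 35 lower (28.6%), against 16.6% and 22.5% of all such genes. By size alone the members were near the background. Of the 39 members with at least 20 tags, 23.1% were at least 1.5-fold higher and 28.2% at least 1.5-fold lower, against 20.5% and 26.6% of all genes.

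The median log2 fold change of these 39 members was -0.08, against -0.10 for the 10045 genes with at least 20 tags, and the interquartile range was 1.12 against 1.06. Scaling by clean tags put the median of all genes at -0.22 and that of the members at -0.19, and it changed the balance of calls from 12 higher and 11 lower to 8 higher and 13 lower. The calls lost with that scaling were those of NDUFA13, NDUFB3, NDUFB9 and NDUFS4, and NDUFAF3 and NDUFS5 were called lower in addition. Summed over all members, the tags went from 15216 to 16010, or from 6604 to 7646 per 1000000 gene tags, a ratio of 1.16 (95% interval 1.13 to 1.18). The share of NDUFA1 in the member tags was 10.6% in the control library and 18.2% in the library labelled shRNA-SOX2, while that of NDUFB9, the other most abundant member, was 13.0% and 13.4%. Without these genes the ratio was 1.04 (1.01 to 1.06). All intervals cover counting error only.

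**Figure D1:**
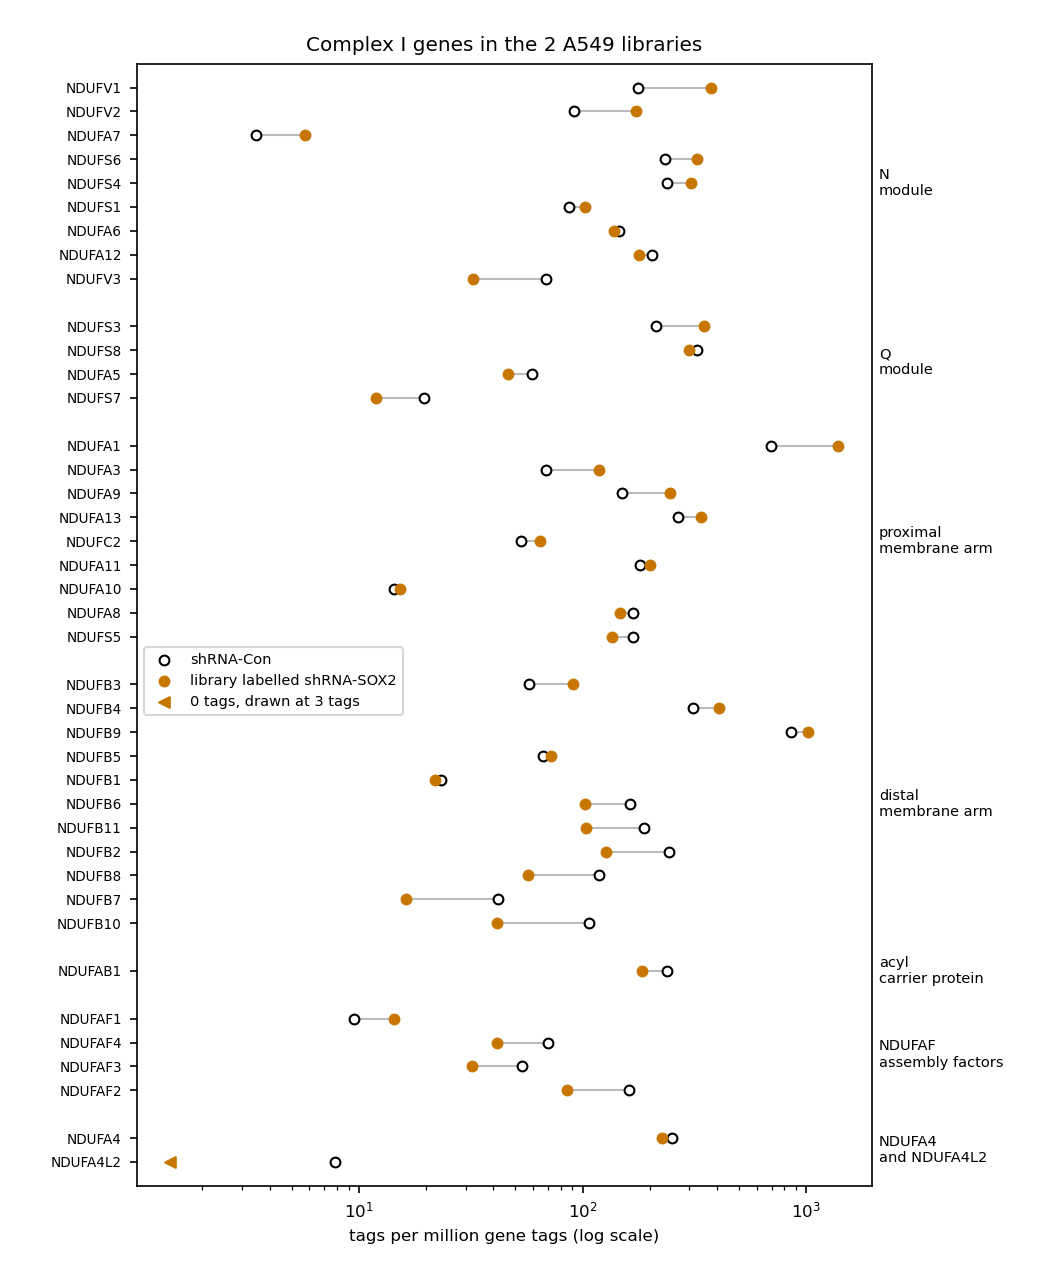
Tags per 1000000 gene tags (log axis) of the 40 complex I genes, grouped by module, in the control library (open circles) and in the library labelled shRNA-SOX2 (filled circles), with 1 library each. NDUFA1 and NDUFB9 lie at the right in both libraries, and the filled circles lie to the right of the open ones in much of the N module and proximal membrane arm and to the left for most distal membrane arm genes.

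Pairs of tag counts are given with the control library first. The counts called in each module or list stand beside 9.53% of all genes called higher and 12.2% called lower. Among genes with at least 100 tags these shares were 16.6% and 22.5%. In the N module, which binds and oxidises NADH, 4 of 9 members were higher and 1 was lower, with a median log2 fold change of 0.35. NDUFV1, the core subunit that holds the NADH site and the flavin, had 408 tags in the control library and 783 in the library labelled shRNA-SOX2. It was 2.11-fold higher (95% interval 1.87 to 2.39, adjusted p = 1.23e-34, Fisher's exact test). Its core partner NDUFV2, an iron-sulphur protein, went from 212 to 364 tags, 1.89-fold higher (1.59 to 2.25, adjusted p = 1.14e-12, Fisher's exact test). Both core flavoprotein subunits rose, with overlapping intervals, and NDUFV1 had 1.92 tags for each NDUFV2 tag in the control library and 2.15 in the other library. NDUFV3, the small accessory subunit of the same flavoprotein, had 159 and 68 tags and was 2.12-fold lower (1.59 to 2.87, adjusted p = 6.70e-07, Fisher's exact test). It was the only N module gene called lower, and the ratio of NDUFV1 to NDUFV3 tags, which does not depend on the scaling, was 2.57 in the control library and 11.5 in the library labelled shRNA-SOX2.

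NDUFS6, a zinc-binding accessory subunit, had 539 and 682 tags, 1.39-fold higher (1.24 to 1.56, adjusted p = 8.99e-08, Fisher's exact test). NDUFS4, an accessory subunit mutated in Leigh syndrome, had 238 and 304 tags per 1000000 gene tags, 1.27-fold higher (1.14 to 1.43, adjusted p = 1.72e-04, Fisher's exact test). These differences were smaller than those of the flavoprotein subunits. NDUFS1, the large core subunit with several iron-sulphur clusters, had 200 and 215 tags and did not pass the test (ratio 1.18, interval 0.971 to 1.44). NDUFA6 (334 and 288 tags), NDUFA12 (473 and 372) and NDUFA7 (8 and 12), all accessory subunits, did not pass either, and NDUFA7 had too few tags to set its direction (ratio 1.65, interval 0.620 to 4.66).

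In the Q module, where ubiquinone is reduced, 1 of 4 members described was higher and 0 were lower, with a median log2 fold change of -0.24. The core subunit NDUFS3 rose from 491 to 731 tags, 1.64-fold (1.46 to 1.84, adjusted p = 2.65e-16, Fisher's exact test). The remaining members all had ratios below 1, and none passed. NDUFS8, a core iron-sulphur subunit, had 750 and 627 tags (ratio 0.920, interval 0.826 to 1.02), and the accessory subunit NDUFA5 had 137 and 97. NDUFS7, a core iron-sulphur subunit near the ubiquinone site, had the lowest ratio in the module with 45 and 25 tags (0.611, interval 0.359 to 1.02).

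Of the 6 nuclear-encoded core subunits described, 3 were higher (NDUFV1, NDUFV2 and NDUFS3) and 0 were lower, with a median log2 fold change of 0.48 and summed tags of 2106 and 2745 (ratio 1.43, interval 1.35 to 1.52). Of the 28 accessory subunits, 9 were higher and 8 lower, with a median of 0.01. Whether core and accessory subunits differ was not tested.

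The proximal membrane arm adjoins the matrix arm. Of its 9 members 4 were higher and 0 were lower, with a median log2 fold change of 0.28, and their summed tags went from 4073 to 5561 (ratio 1.5, interval 1.44 to 1.56). This sum is weighted to NDUFA1, the most abundant gene of the arm, and no ratio without it was computed. NDUFA1, a small X-linked accessory subunit needed for assembly, had 1611 tags in the control library and 2908 in the library labelled shRNA-SOX2. It was 1.99-fold higher (1.87 to 2.11, adjusted p = 3.94e-111, Fisher's exact test), the smallest p-value of any member, and passed NDUFB9 as the member with the most tags. NDUFA3 had 158 and 249 tags, 1.73-fold higher (1.42 to 2.13, adjusted p = 3.62e-07, Fisher's exact test). NDUFA9, a dehydrogenase-like subunit at the junction of the arms, had 345 and 515 tags, 1.64-fold higher (1.43 to 1.89, adjusted p = 8.50e-12, Fisher's exact test). NDUFA13, also known as GRIM-19 and described as a cell death regulator, had 614 and 711 tags, 1.27-fold higher (1.14 to 1.42, adjusted p = 6.34e-05, Fisher's exact test).

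The other proximal members had ratios between 0.807 and 1.22 and did not pass. NDUFC2 had 122 and 135 tags, NDUFA11 had 415 and 421, and NDUFA10, a subunit related to nucleoside kinases, had 33 and 32. NDUFA8 and NDUFS5, which have a twin cysteine fold and face the intermembrane space, had 389 and 307 tags and 386 and 283 tags. NDUFS5, the lowest of the module, was 1.24-fold lower (1.06 to 1.45, adjusted p = 0.0187, Fisher's exact test).

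The distal membrane arm, which here consists of the NDUFB genes, held most of the decreases. Of its 11 members 6 were lower and 3 higher, the median log2 fold change was -0.66, and all 6 called lower were also past 1.5-fold. NDUFB10, a subunit stabilised by disulphide bonds, fell from 247 to 87 tags, 2.58-fold (2.01 to 3.33, adjusted p = 1.39e-14, Fisher's exact test). NDUFB7, a twin cysteine subunit, had 96 and 34 tags, 2.57-fold lower (1.72 to 3.91, adjusted p = 4.67e-06, Fisher's exact test). NDUFB8, often used as a protein marker of assembled complex I, had 272 and 119 tags, 2.08-fold lower (1.67 to 2.60, adjusted p = 7.08e-11, Fisher's exact test). Together with NDUFV3 these had the lowest ratios among the subunits. NDUFB2 had 561 and 265 tags, 1.92-fold lower (1.66 to 2.23, adjusted p = 4.21e-18, Fisher's exact test). The X-linked NDUFB11 had 434 and 218 tags, 1.81-fold lower (1.53 to 2.14, adjusted p = 4.24e-12, Fisher's exact test). NDUFB6 had 375 and 216 tags, 1.58-fold lower (1.33 to 1.87, adjusted p = 5.32e-07, Fisher's exact test).

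In the same arm NDUFB3 had 133 and 190 tags, 1.57-fold higher (1.25 to 1.98, adjusted p = 3.00e-04, Fisher's exact test). NDUFB4 had 716 and 856 tags, 1.32-fold higher (1.19 to 1.45, adjusted p = 5.35e-07, Fisher's exact test). NDUFB9, which binds acyl carrier protein, had 1972 and 2140 tags, 1.19-fold higher (1.12 to 1.27, adjusted p = 1.22e-07, Fisher's exact test), the smallest difference of any called member. NDUFB5 (153 and 152 tags) and NDUFB1 (54 and 46) did not pass. The abundant NDUFB9 and NDUFB4 were among the higher members, and the summed tags of the arm were 5013 and 4323 (ratio 0.949, interval 0.911 to 0.989). For every tag of NDUFB10 there were 7.98 tags of NDUFB9 in the control library and 24.6 in the library labelled shRNA-SOX2, and NDUFV1 stood to NDUFB10 as 1.65 and 9.00. The tags of the matrix arm over those of the distal arm went from 0.859 to 1.13, and the proximal over the distal arm from 0.812 to 1.29, ratios that no scaling of the libraries can move. The proximal sum includes NDUFA1, with 1611 and 2908 tags.

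**Figure D2:**
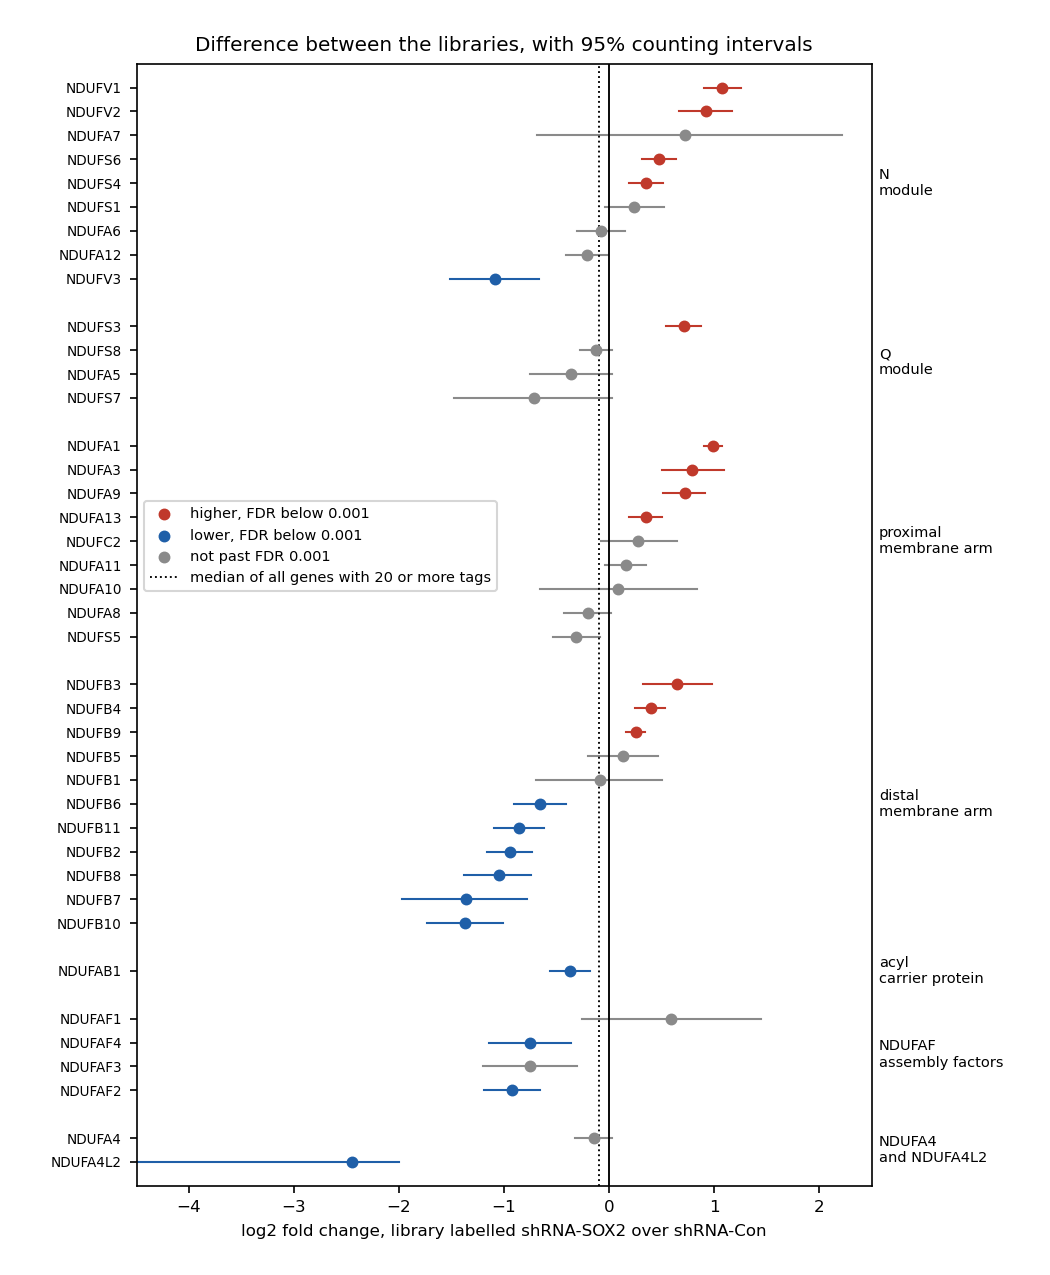
Log2 fold change of each complex I gene, library labelled shRNA-SOX2 to control library, with 95% counting intervals (horizontal bars). The bar of NDUFA4L2 is cut at the left axis limit, and its point is drawn with the count of 0 set to the floor of 3 tags. Red and blue points passed an FDR of 0.001 and grey points did not, and the dotted line is the median of all genes, -0.10. All blue subunits other than NDUFV3 and NDUFAB1 lie in the distal membrane arm.

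NDUFAB1, the mitochondrial acyl carrier protein that sits in both arms and also serves fatty acid synthesis, had 551 and 388 tags and was 1.29-fold lower (1.13 to 1.47, adjusted p = 5.56e-04, Fisher's exact test). It lost its call when the libraries were scaled by TMM factors. Among the 4 assembly factors with NDUFAF symbols, 2 were lower and 0 higher, with a median log2 fold change of -0.75. NDUFAF2, a paralog of NDUFA12 that acts late in assembly, had 371 and 178 tags, 1.89-fold lower (1.58 to 2.28, adjusted p = 9.33e-12, Fisher's exact test). NDUFAF3 and NDUFAF4 work as partners on the Q module, and their ratios were alike. NDUFAF4 had 161 and 87 tags, 1.68-fold lower (1.29 to 2.21, adjusted p = 3.85e-04, Fisher's exact test), a call that TMM scaling also removed. NDUFAF3 had 124 and 67 tags, 1.68-fold lower, but missed the threshold (1.24 to 2.30, adjusted p = 0.00207, Fisher's exact test). NDUFAF1, which joins early intermediates of the membrane arm, had 22 and 30 tags (ratio 1.5, interval 0.837 to 2.73).

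NDUFA4L2, a hypoxia-inducible paralog of NDUFA4, had 18 tags in the control library and 0 in the library labelled shRNA-SOX2. With that count set to a floor of 3 tags, it was 5.45-fold lower (adjusted p = 6.26e-05, Fisher's exact test). The counting interval, taken from the tags themselves, allowed a difference as small as 4.00-fold. It was the member with the fewest tags and the only one listed at 0. NDUFA4 itself had 578 and 476 tags and did not pass (ratio 0.906, interval 0.801 to 1.02).

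Fisher's exact test takes cultures of a condition to vary by counting error alone. When edgeR's exact test was given a biological coefficient of variation of 0.1, 6 of the 23 called members remained. They were 2 of 40 members called higher (5%) and 4 of 40 called lower (10%), against 3.90% and 4.98% of all genes, and over all genes 1166 were called in place of 2849. NDUFA1 and NDUFV1 remained higher, and NDUFB2, NDUFB8, NDUFB10 and NDUFA4L2 remained lower. With a coefficient of 0.2 or 0.4 none of the members passed FDR 0.001. Of them, 11 and 1 had an unadjusted p below 0.05, but the share of all genes below it was not computed. RefSeq lists at least 1 pseudogene named after the member (its symbol, P and a number) for 22 members. Among the 18 without one so named, 5 were higher and 4 lower, but pseudogenes under other names were not counted. For members with pseudogenes, such as NDUFB4 with 12 and NDUFA3 with 6, the reads may be shared with a near copy, and how shared reads were assigned is not given in the sources used here. Among called members, NDUFV2 and NDUFB2 overlap antisense genes and NDUFS6, NDUFA3, NDUFB3, NDUFB6, NDUFB11 and NDUFA4L2 overlap other genes, and whether strand was used in counting is not given either, so these counts are uncertain.

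**Figure D3:**
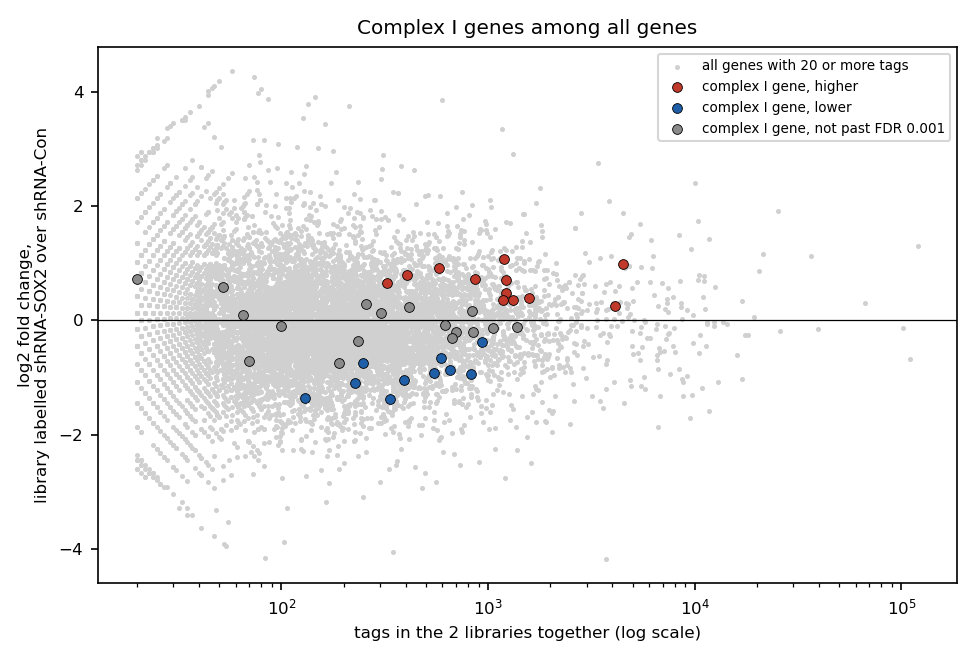
Log2 fold change against the tags in the 2 libraries together (log axis) for all 10045 genes with at least 20 tags (light grey) and for the 39 complex I genes among them (coloured by call). The complex I genes lie within the cloud of other genes, and the called ones lie to the right of the median of all genes, 89.0 tags, except NDUFA4L2, which is not drawn because it has 18 tags.

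Assembly factors that do not carry an NDUFAF symbol in the table were described from a list. NDUFAF5, NDUFAF6, NDUFAF7 and NDUFAF8 appear under the older symbols C20orf7, C8orf38, C2orf56 and C17orf89 with 43 and 65, 65 and 57, 47 and 42, and 395 and 415 tags, and 0 of these 4 passed. Of 11 further assembly factors, 3 were higher and 1 was lower, with a median log2 fold change of 0.32. ACAD9 (78 and 147 tags), TMEM186 (56 and 103) and COA1 (listed as C7orf44, 389 and 546), which belong to the intermediate assembly complex of the membrane arm, were the higher ones. ECSIT (69 and 29 tags) and TMEM126B (107 and 86), which belong to it as well, did not pass. DMAC1 (listed as C9orf123) was lower with 185 and 83 tags. The remaining factors did not pass. DMAC2 (listed as ATP5SL, 208 and 251 tags), FOXRED1 (21 and 38) and TIMMDC1 (244 and 276) had ratios above 1. NUBPL (96 and 63 tags) and TMEM70 (100 and 64) had ratios below 1.

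The other respiratory complexes were also mixed, and their counts stand beside 9.53% of all genes called higher and 12.2% called lower. In complex II, 0 of 4 genes were higher and 1 was lower, SDHB with 250 and 155 tags. In complex III, 1 of 9 was higher and 1 lower, UQCRB with 13 and 53 tags and the Rieske protein UQCRFS1 with 964 and 487, and the median log2 fold change was 0.00. In complex IV, 2 of 9 were higher, COX6B1 (1384 and 3449 tags) and COX6C (1023 and 1611), and 3 lower, COX6A1 (2593 and 887), COX5B (579 and 337) and COX8A (1364 and 901), with a median of -0.09. In complex V, the ATP synthase, 9 of 15 were higher and 2 lower, with a median of 0.34. These included USMG5 with 2103 and 4201 tags, ATP5L with 1326 and 2622, and ATP5G3 with 1757 and 3078 among the higher, and the catalytic subunit ATP5B with 2209 and 1542 and ATP5C1 with 647 and 416 as the lower ones. No difference between complexes was tested.

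**Figure D4:**
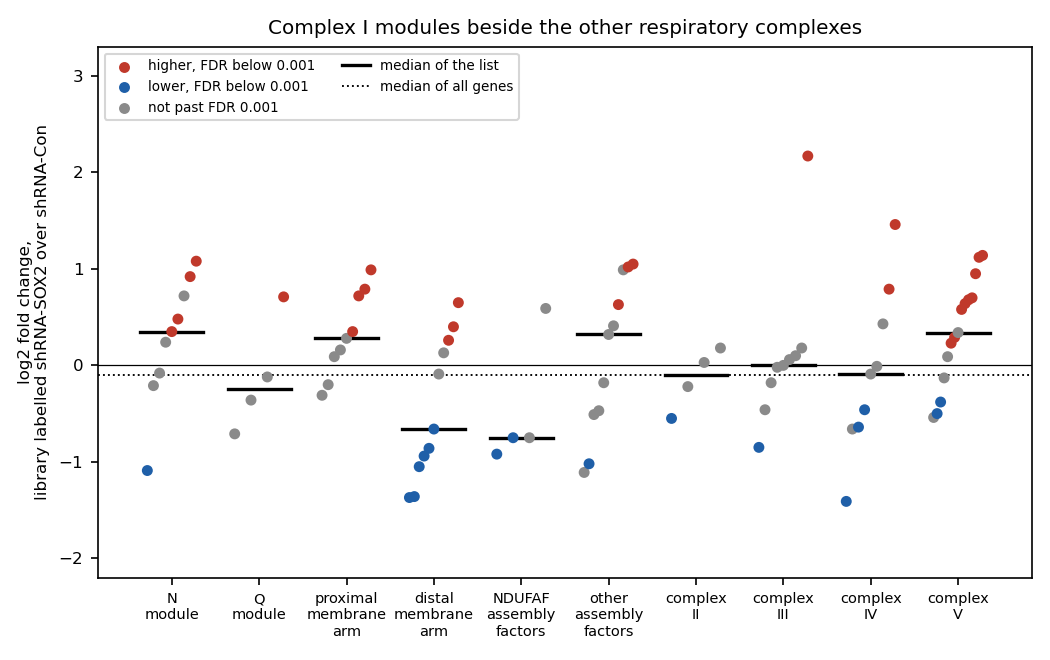
Log2 fold change of genes with at least 20 tags in the complex I modules, 2 lists of assembly factors and complexes II to V. Thick bars stand at the median of each list and a dotted line at the median of all genes (-0.10). NDUFAF5, NDUFAF6, NDUFAF7 and NDUFAF8, listed under older symbols, are not drawn, and their median is 0.09. Among the lists drawn, the distal membrane arm and the 4 genes with NDUFAF symbols have the lowest medians (-0.66 and -0.75). The N module and complex V have the highest (0.35 and 0.34), with points of both signs in each list drawn.

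Of 12 regulators of mitochondrial biogenesis with a row, 0 were higher and 6 were lower, beside 9.53% and 12.2% of all genes. The median log2 fold change of the 11 with at least 20 tags was -0.81. Letting cultures vary with a coefficient of 0.1 in edgeR left 2 called lower, against 4.98% of all genes, and a coefficient of 0.2 left 0. TFAM, which packages and transcribes mitochondrial DNA, had 84 and 35 tags, and TFB2M, a mitochondrial transcription factor, had 214 and 101. GABPB1, the partner of GABPA, had 103 and 44 tags, CREB1 had 140 and 41, and MYC had 542 and 125. The coactivator PPARGC1A had 14 tags in the control library and 0 in the library labelled shRNA-SOX2. NRF1 (50 and 54 tags), GABPA (69 and 57), ESRRA (93 and 102) and YY1 (437 and 447), whose letters were searched in the promoters, did not pass. A relation between these regulators and the complex I genes was not tested.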

How the data were processed

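The study collected A549-H1tetO-shRNA-SOX2 and A549-H1tetO-shRNA-Con cells after Dox, took 4 µg of total RNA per sample and purified mRNA on oligo(dT) beads for digital gene expression at the Beijing Genomics Institute. The authors deposited raw tag counts per Entrez Gene ID for both libraries and a TPM column in which those counts are scaled to each library's clean tags. The build in the submitters' processing notes is hg19, and the aligner is not given in the sources used here. The deposited table also holds the authors' log2 ratio, p-value and FDR, which were not used. Columns were mapped by the SC and S1 in their names to the Con and SOX2 titles.

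The result of 1 further gene found by the symbol rule is not reported here, and counts and medians over members leave it out. The complex I genes and all other lists were chosen with earlier results of these data known. For each of 13137 genes, Fisher's exact test (two-sided) set its counts against all remaining gene tags, and p-values were adjusted by the Benjamini-Hochberg method at the study's FDR of 0.001. Fold changes used gene tag totals, with counts below 3 set to 3. Ratio intervals are 95% Clopper-Pearson intervals. Medians used genes with at least 20 tags. With 1 library per condition, no fit that estimates the spread between cultures was possible. Rows without a symbol (19) held 0.0535% of the control library's gene tags and 0.0372% of the other's, and stayed in the totals because they have gene IDs. The clean-tag totals, 3516267 and 3456234, were found from the deposited counts and TPM. Every member is given by its tags, those past the FDR and the extremes of each module with full statistics, and from the other lists the genes past the FDR are named by rule, while further genes named there were chosen after their values were seen. Tests ran in scipy 1.17.1 (Python 3.11.15), while edgeR 4.0.16 and DESeq2 1.42.0 under R 4.3.3 gave the alternatives. Fisher's exact test and the fold change were tried on simulated counts that varied by counting error alone. The other steps were not tried on simulated data. Promoters and gene relations are from RefSeq (GRCh38.p14), in which 13086 of the gene IDs were found. Where a gene has several promoters, the first listed was used. NDUFC2, NDUFS5, NDUFB9 and NDUFB5 were not matched. Alternatives were TMM, median-ratio and clean-tag scaling, low-count filters, assumed spreads, an FDR of 0.05, 0.5 added to each count, and subsets of the members.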

Additional observations from a re-analysis of the deposited data

How the results depend on the processing

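The counts of called members depended most on the spread assumed between cultures. The 11 members called lower became 4 when edgeR's exact test was given a biological coefficient of variation of 0.1 and 0 with 0.2 or 0.4, and the 12 called higher became 2, 0 and 0. At 0.2 and 0.4, 11 and 1 members had an unadjusted p below 0.05, and 113 and 0 of all genes passed. Among members with no RefSeq pseudogene named after them, 4 were lower and 5 higher with a median log2 fold change of 0.16 in place of -0.08, over fewer genes. Scaling by clean tags gave 8 higher. TMM and median-ratio scaling kept 21 of the 23 calls and lost NDUFAB1 and NDUFAF4, clean tags kept 19, and the cause was not tested. The median of -0.08 became -0.19 with clean tags, -0.01 with median-ratio factors and -0.09 with a minimum of 100 tags. Counts past 1.5-fold ranged from 7 to 9 higher and from 10 to 11 lower. Leaving out the assembly factors, NDUFA4 and NDUFA4L2, an alternative chosen after seeing the data, gave 12 higher, 8 lower and a median of 0.11, so the sign of the median depends on the genes counted. No paired analysis was possible because there is only 1 library to a condition, and no replicate could be left out. Depth limits NDUFA7, NDUFA4L2, NDUFAF1 and NDUFA10, each with few tags.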
